A study of Homo sapiens with 8 samples.

Results

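The comparison was between 2 established human ovarian cancer cell lines, A2780 and SKOV3, in ordinary culture at 37 °C, across all genes measured on Illumina BeadChips. It used 4 of the 8 arrays of a study of how such tumour cells respond to heat: 2 arrays of A2780 cells and 2 of SKOV3 cells, all from the 37 °C control groups. The other 4 arrays, 2 for each line after exposure to 46 °C, were normalized and fitted together with these, adding to the estimate of the spread, and were also fitted alone to see whether a difference between the lines was found again in other samples. The labels give no genotype, drug or added agent, do not state how long the heat lasted, and do not say whether the replicates were separate cultures, so p-values measure the spread between these samples, which may be technical. Each side is 1 cell line, so a difference is one between these 2 lines and not between classes of tumour.

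A2780 came from an untreated ovarian tumour, and SKOV3 from the ascites of a patient with ovarian adenocarcinoma. Ovarian carcinoma cells can carry an epithelial programme, with keratin filaments and cell junctions, a mesenchymal programme, with matrix proteins and transcription factors such as SNAI2 and TWIST1, or parts of both. SKOV3 is widely used as a line with an amplified ERBB2, the HER2 receptor gene, and is also recorded as having lost CDKN2A, the gene of the cell-cycle inhibitor p16.

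On each array the median probe signal lay between 121.8 and 143.9 on the linear intensity scale of the scanner. The second A2780 array stood apart as brighter: its upper quartile was 317.1 where the other 3 ranged from 196.1 to 243.1, and 43.5% of its probes were above background where the others had 38.0% to 40%. After normalization, the log2 intensities of the 2 A2780 arrays correlated across 14189 genes with r = 0.992 and those of the 2 SKOV3 arrays with r = 0.996, while arrays of different lines correlated with r between 0.936 and 0.946. Genes are not independent replicates, and these values only describe the arrays.

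The labels did not pass a check against what is known of SKOV3. ERBB2 read 9.25 and 9.49 in normalized log2 intensity on the A2780 arrays and 9.45 and 9.497 on the arrays labelled SKOV3, which is nearly the same level in both lines. The difference of 0.10 ± 0.13 (SE, n = 2 a line) was not called by limma's moderated test (adjusted p = 0.629), and it was 0.24 in the arrays at 46 °C. Under no processing tried was ERBB2 called higher in the cells labelled SKOV3, and without normalization between arrays it was called lower, with a difference of -0.57. Among 25 tested genes listed around ERBB2 on 17q12, a region that can be gained with it, 2 were called higher and 3 lower. Median scaling gave 2 and 10, and fewer were lower without the second A2780 array or either array labelled SKOV3. STAC2, which the list leaves out though it lies near ERBB2, was also called lower, with a difference of -0.61. STARD3, PGAP3, MIEN1 and GRB7, the genes next to it, were not called, with differences of 0.01, -0.26, 0.38 and 0.04.

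**Figure D1:**
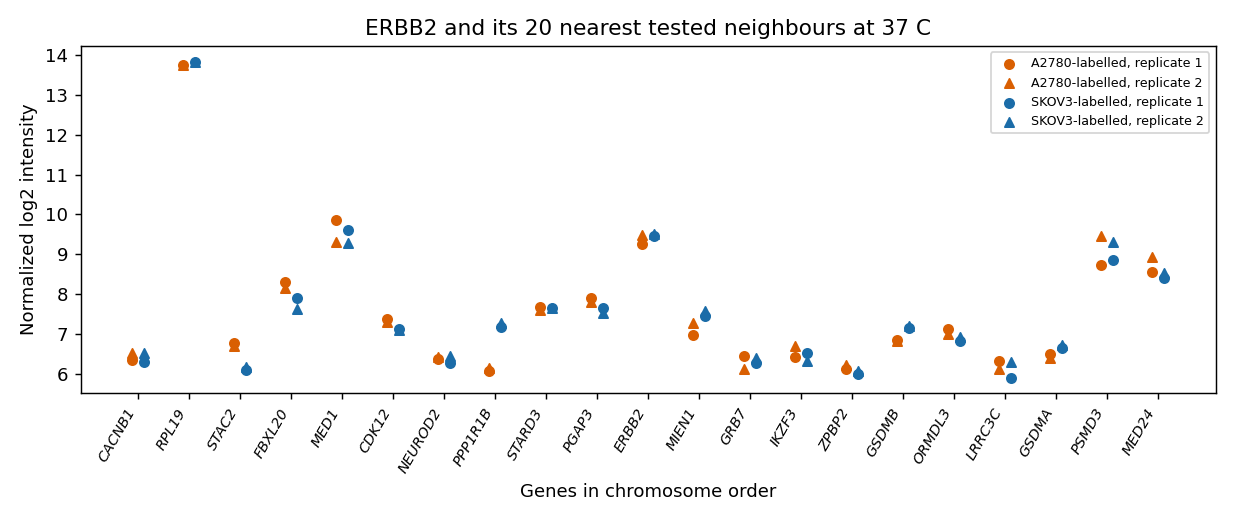
Normalized log2 intensity (vertical axis) of ERBB2 and the 10 nearest tested genes on each side of it, in chromosome order (horizontal axis), with 1 point for each array at 37 °C. The points of the 2 lines overlap or lie close together at ERBB2 and at the genes beside it, and PPP1R1B is the gene nearest to it that was called higher in the cells labelled SKOV3. The other probe of PPP1R1B gave a difference of -0.02.

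CDKN2A went against the label as well. It read 7.08 and 7.28 on the A2780 arrays and 8.995 and 9.12 on those labelled SKOV3, so that the cells recorded as lacking the gene had the higher values on both arrays. Its difference of 1.88 ± 0.15 (SE, adjusted p = 4.78e-07) was met again at 46 °C, at 1.79, and its other probe gave 2.00. MTAP, which lies beside CDKN2A and salvages adenine, differed by 0.70 ± 0.13 in the same direction (adjusted p = 0.00127). These 2 genes were singled out after their values were seen. Many of the defining epithelial and Müllerian markers were at background in both lines: no probe of KRT7, KRT8, CDH1, PAX8, SOX17, WT1, MUC16, WFDC2, FOLR1 or MSLN was above background on any array at 37 °C. EPCAM, an epithelial adhesion protein, was above background on both arrays of each line (6.64 and 6.45 against 7.89 and 7.60), and the keratins KRT18 (7.66 and 7.91) and KRT19 (6.55 and 6.47) on both SKOV3-labelled arrays and neither A2780 array. VIM, the mesenchymal filament protein, read 14.14 and 13.999 on the A2780 arrays and 14.07 and 14.06 on those labelled SKOV3. The identity of the cells was not tested further, and they are called SKOV3-labelled below. Every direction given here is that of the labelled arrays.

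With that limit, the 2 sets of arrays were clearly different. Of 14189 genes tested, 4163 (29.3%) were called at an adjusted p under 0.05, 2210 (15.6%) higher and 1953 (13.8%) lower in SKOV3-labelled cells. A change of at least 2-fold was reached by 553 of the higher and 441 of the lower genes. The median difference over all genes was 0.01 and the median absolute difference 0.22, both in log2. In all 4163 called genes the arrays of the 2 lines did not overlap, but that was also so for 8960 genes in all (63.1%). The split between higher and lower calls depended on how the arrays were brought to one scale: scaling on the median in place of quantile normalization gave 890 higher and 4509 lower calls, since it moved the median of all genes to -0.19. Of the 4163 calls 3957 kept their sign under median scaling and 3401 without normalization between arrays. In the latter HYOU1, with a difference of 0.64, turned. Among the 273 named genes that were followed, HYOU1 had the largest difference of those that turned, and all of them had positive differences. The direction of a positive difference of that size or smaller can therefore depend on the scaling. For genes outside these 273 no such limit was determined.

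Among genes above background on all 4 arrays, the most reduced in SKOV3-labelled cells was S100A4, a small calcium-binding protein tied to cell motility. It read 13.24 and 13.32 in A2780 against 7.49 and 7.59, a 53.5-fold difference on this scale (log2 difference -5.74 ± 0.13 SE, adjusted p = 1.66e-12 in limma's test). NTS, which encodes the secreted peptide neurotensin, read 12.56 and 12.54 against 7.44 and 7.44. COL3A1, a fibrillar collagen chain, read 12.20 and 12.16 against 8.01 and 7.997. In all 3 genes the 2 arrays of a line lay far closer to each other than to the other line. The other genes of this kind were CYP1B1 (28.2-fold), PCOLCE, an enhancer of procollagen processing (23.8-fold), PCDH7, a protocadherin (21.3-fold), QPCT, a glutaminyl cyclase (20.8-fold), TWIST1, a mesenchymal transcription factor (19.3-fold), BCAT1, the cytosolic branched-chain aminotransferase (14.7-fold), RGS16, a regulator of G protein signalling (14.2-fold), CD99 (12.997-fold) and ITM2B (11.1-fold). A second probe of ITM2B differed by only -0.15, so that its change rests on 1 probe, and the other probes of PCDH7 gave -1.63 to -0.88.

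In the opposite direction ISL1, a LIM homeodomain transcription factor of motor neurons, pancreas and heart, read 13.35 and 13.45 in SKOV3-labelled cells against 7.48 and 7.25 in A2780. Its log2 difference of 6.03 ± 0.13 (SE) corresponds to 65.5-fold (adjusted p = 1.66e-12). POSTN, which encodes the matricellular protein periostin, read 12.45 and 12.33 against 7.49 and 7.203. CRABP2, a carrier of retinoic acid to its nuclear receptors, read 13.11 and 13.14 against 8.95 and 8.86, and CITED2, a coregulator of CBP and p300, read 13.09 and 13.17 against 8.97 and 8.77. The other leading genes were DBNDD2 (34.3-fold), ARHGAP15, a GTPase-activating protein for Rac (29.9-fold), TM4SF1, a membrane protein of the tetraspanin-like L6 family (27.1-fold), TNFRSF19 (26.4-fold), FXYD5 (16.7-fold), UBE2E2, a ubiquitin-conjugating enzyme (16.2-fold), PEG10, an imprinted gene derived from a retrotransposon (15.7-fold), and ATP11B, a phospholipid flippase (15.4-fold). For DBNDD2 and TNFRSF19 the other probes differed by only 0.28 and by 0.47 to 0.48, that of PEG10 by 1.65 and those of FXYD5 by 0.16 to 3.65, while the second probes of POSTN and ATP11B gave 4.62 and 3.09.

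A further 228 called genes were above background on both SKOV3-labelled arrays and on neither A2780 array, and 325 the other way round. For these a fold change is a lower bound, the mean of the bright arrays over the lowest signal that counted as above background, or the gene's own signal where that was higher. CAVIN2, a membrane-shaping protein of caveolae, read 12.84 and 12.97 in SKOV3-labelled cells against 6.06 and 6.29, at least 92.3-fold higher. ANKRD1, a stress-induced ankyrin-repeat protein and a common reporter of the transcription factors YAP and TEAD, read 12.29 and 12.46 against 6.06 and 5.97, at least 63.8-fold higher. The next were MID1, a microtubule-bound ubiquitin ligase (at least 50.6-fold), CLDN1, a claudin of tight junctions (42.2-fold), P3H2, a collagen prolyl hydroxylase (41.4-fold), NRG1, a ligand of the receptors ERBB3 and ERBB4 (37.0-fold), NABP1, a single-stranded DNA-binding protein (24.6-fold), CCNO, an atypical cyclin of multiciliated cells (22.1-fold), the neuropeptide gene NMU (16.3-fold), RGS20 (14.6-fold), TMEM30B, a flippase subunit (12.5-fold), and CXCL1, a chemokine for neutrophils (12.02-fold), each as a lower bound. The other probes of MID1 ranged from -0.08 to 3.06 and those of NRG1 from 0.40 to 2.36.

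Among genes seen in A2780 alone, DKK1, a secreted inhibitor of Wnt signalling, read 12.89 and 12.79 in A2780 against 6.42 and 6.42, at least 83.5-fold lower in SKOV3-labelled cells. ITM2A, a membrane protein of cartilage and muscle differentiation, read 12.54 and 12.55 against 6.26 and 5.96, at least 67.9-fold lower. DCN, the collagen-binding proteoglycan decorin, was at least 53.9-fold lower, although its 3 other probes ranged from -2.32 to -0.02. HAPLN1, which links hyaluronan to proteoglycans, was at least 41.03-fold lower, and SNAI2, a repressor of epithelial genes, at least 34.8-fold lower. They were followed by VIP, vasoactive intestinal peptide (at least 30.6-fold), TYRP1, a melanosome enzyme (22.8-fold), UCHL1, a ubiquitin hydrolase abundant in neurons (20.6-fold), TMEM88 (18.5-fold), QPRT, an enzyme of NAD synthesis (18.5-fold), the proteoglycan VCAN (16.4-fold) and RERGL (15.9-fold). A lower signal in bulk RNA does not tell fewer expressing cells from less RNA per cell.

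**Figure D2:**
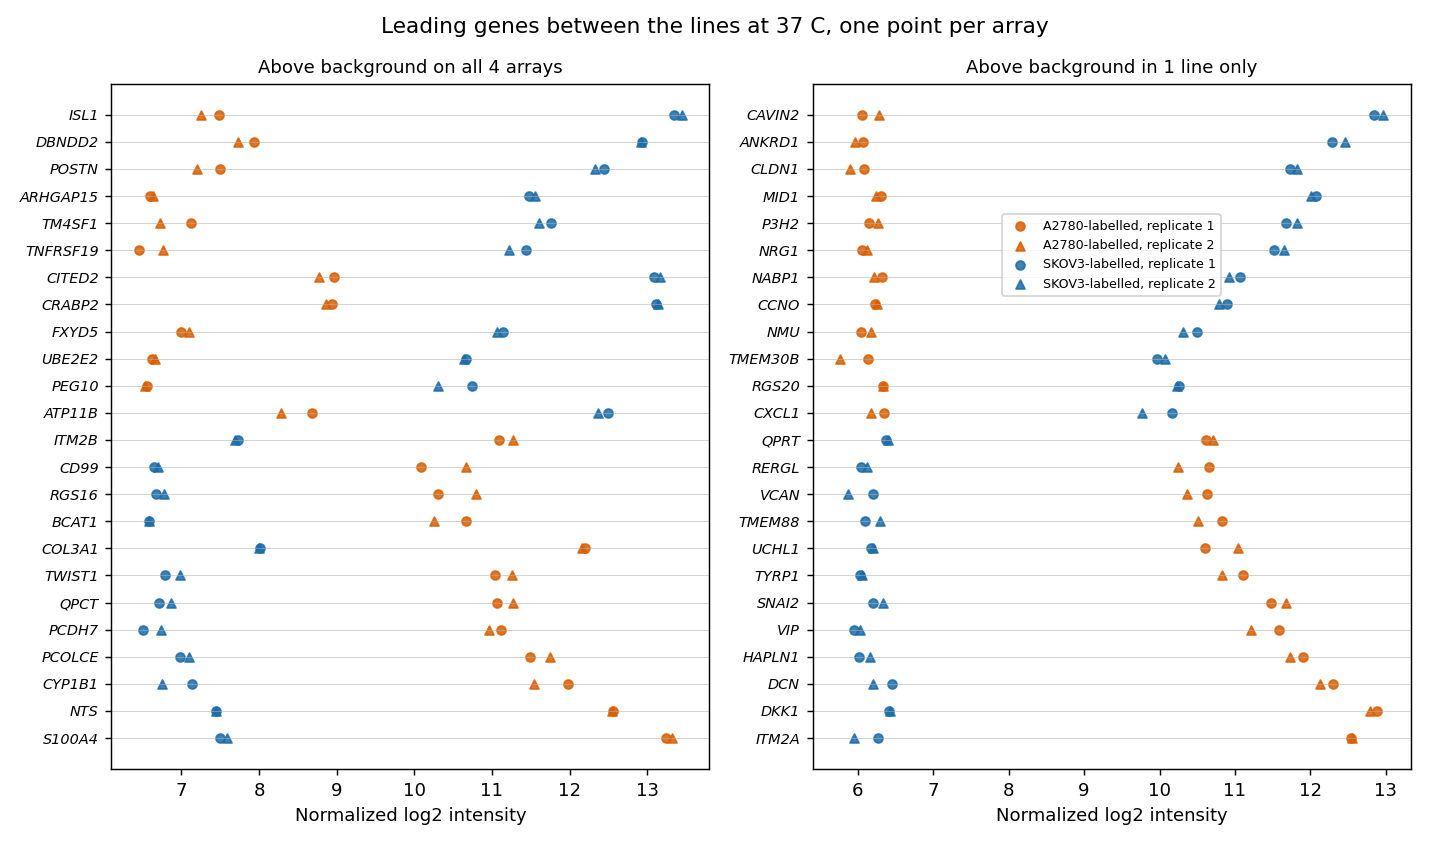
Normalized log2 intensity (horizontal axis) of the 48 leading genes, 24 above background on all 4 arrays (left) and 24 above background in 1 line only (right), with 1 point for each array at 37 °C. The replicates of a line lie close together in every gene while the means of the lines differ by at least 3.47 log2 units in each of them, and values near 6 are those of unexpressed probes, whose order carries no meaning.

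The promoters of the 2 leading genes of each kind are shown because the genes change between undetected and strong signal, and because promoters of genes expressed in few tissues often hold fewer CG dinucleotides, the sites of DNA methylation, than those of widely expressed genes. Each run is 300 bases from 250 before the start of transcription to 50 after it, from RefSeq on GRCh38.p14, read 5′ to 3′ on the strand of the gene, with every CG in capitals. CAVIN2 lies on chr2:191847039-191847338 (minus strand), ANKRD1 on chr10:90921038-90921337 (minus), DKK1 on chr10:52314031-52314330 (plus) and ITM2A on chrX:79367285-79367584 (minus).
CAVIN2: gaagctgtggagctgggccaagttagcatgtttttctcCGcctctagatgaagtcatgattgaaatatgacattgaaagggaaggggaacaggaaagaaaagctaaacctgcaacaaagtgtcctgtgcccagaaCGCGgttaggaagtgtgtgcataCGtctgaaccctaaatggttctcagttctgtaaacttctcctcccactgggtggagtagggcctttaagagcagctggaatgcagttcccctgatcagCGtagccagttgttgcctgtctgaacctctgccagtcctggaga
ANKRD1: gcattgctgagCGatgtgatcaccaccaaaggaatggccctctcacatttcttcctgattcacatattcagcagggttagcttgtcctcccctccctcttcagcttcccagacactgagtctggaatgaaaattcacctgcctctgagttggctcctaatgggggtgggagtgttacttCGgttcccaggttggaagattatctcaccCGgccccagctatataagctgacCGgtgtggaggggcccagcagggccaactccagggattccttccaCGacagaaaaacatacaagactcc
DKK1: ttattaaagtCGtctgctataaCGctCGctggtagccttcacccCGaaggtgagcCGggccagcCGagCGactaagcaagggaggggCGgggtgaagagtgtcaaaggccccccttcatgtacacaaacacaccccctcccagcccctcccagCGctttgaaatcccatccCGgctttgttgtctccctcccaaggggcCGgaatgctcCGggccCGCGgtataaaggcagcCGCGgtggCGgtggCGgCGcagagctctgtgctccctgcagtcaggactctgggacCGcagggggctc
ITM2A: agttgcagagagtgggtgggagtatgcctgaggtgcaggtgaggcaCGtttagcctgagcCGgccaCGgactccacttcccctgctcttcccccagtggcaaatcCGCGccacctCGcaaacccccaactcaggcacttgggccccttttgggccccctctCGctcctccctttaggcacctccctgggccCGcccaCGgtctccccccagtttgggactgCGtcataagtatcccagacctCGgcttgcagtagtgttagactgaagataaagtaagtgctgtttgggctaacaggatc

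CAVIN2 and ANKRD1 each held 5 CG sites, an observed to expected ratio of 0.277 and 0.243, against 20 sites and 0.659 in DKK1 and 11 sites and 0.412 in ITM2A. The letters GGAATG, the core that TEAD factors bind, read on either strand, occurred in 2 copies in ANKRD1, in 1 copy each in CAVIN2 and DKK1 and in 0 copies in ITM2A. At least 1 copy was present in 10.8% of 11097 promoters of the same length. The letters TATAAA, on either strand, were present in DKK1 and in 7.17% of the promoters. Over the genes called and seen in 1 line only, the median CG ratio was 0.731 for the SKOV3-labelled cells (173 of 228 genes with a promoter) and 0.658 for A2780 (227 of 325), beside 0.82 over all genes tested and 0.857 over genes above background on all 4 arrays. A ratio of at least 0.6 was found in 64.2% and 58.6% of these 2 sets and in 76.9% of all. No methylation was measured.

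The differences between the lines were found again in the 4 arrays at 46 °C, which were fitted alone for this purpose. The arrays at 46 °C were normalized with the others and added to the estimate of the spread behind the calls at 37 °C, so the repeat is not fully separate. With the spread taken from the 4 arrays at 37 °C alone, 4033 genes were called there and 2439 of them again at 46 °C. In the separate fit of the arrays at 46 °C 3131 genes (22.1%) were called. Of the 4163 genes called at 37 °C, 3981 (95.6%) had the same sign there, beside 73.1% of all genes, and 2462 (59.1%) were called in the same direction. Of the 994 called with at least a 2-fold change, 960 (96.6%) were called the same way. The differences at the 2 temperatures correlated with r = 0.911 over all 14189 genes and 0.958 over the called genes, a description across genes that share probes and arrays' processing. Only 9 genes were called in opposite directions, ABRAXAS1, CTU1, DHDH, HBEGF, ISL2, RHBDL2, RPPH1, STC2 and ZBTB49, all with less than a 2-fold difference at 37 °C.

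**Figure D3:**
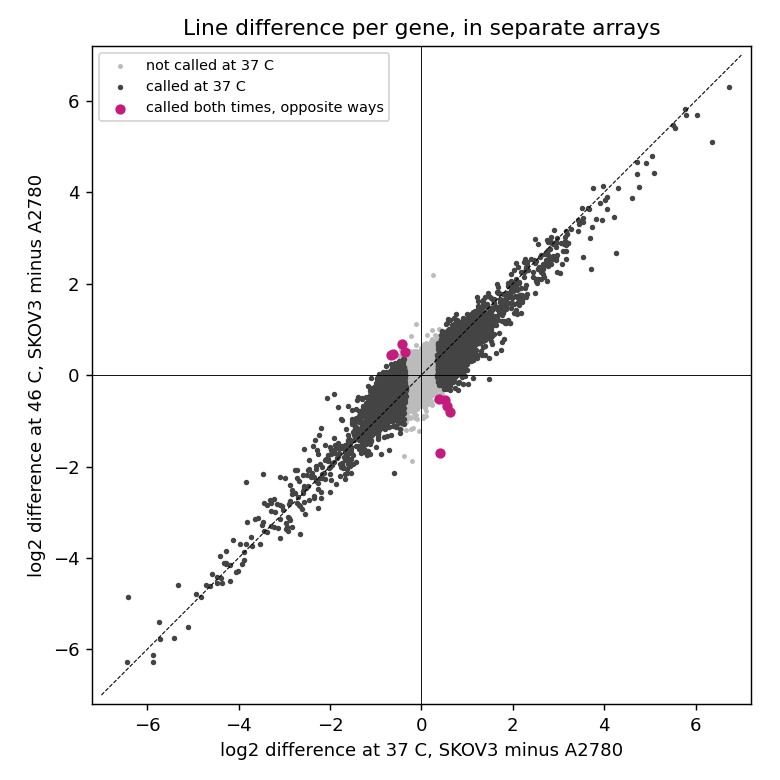
Difference between the lines (SKOV3-labelled minus A2780, log2) for each gene at 37 °C (horizontal axis) and, in separate arrays, at 46 °C (vertical axis), with 1 point a gene and equal differences on the dashed line. The large differences lie along that line in both directions (r = 0.958 over called genes), and the 9 genes called in opposite directions sit near the centre.

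Across 43 lists of genes, each described by counts beside the 15.6% and 13.8% of all genes called higher and lower, the lists differed widely. They were chosen with earlier results of these arrays known, so the counts describe the lines and are no independent evidence. Where scaling on the median moved the share of higher among the calls by more than 10 points, its split is given beside the main one, in the same order.

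**Figure D4:**
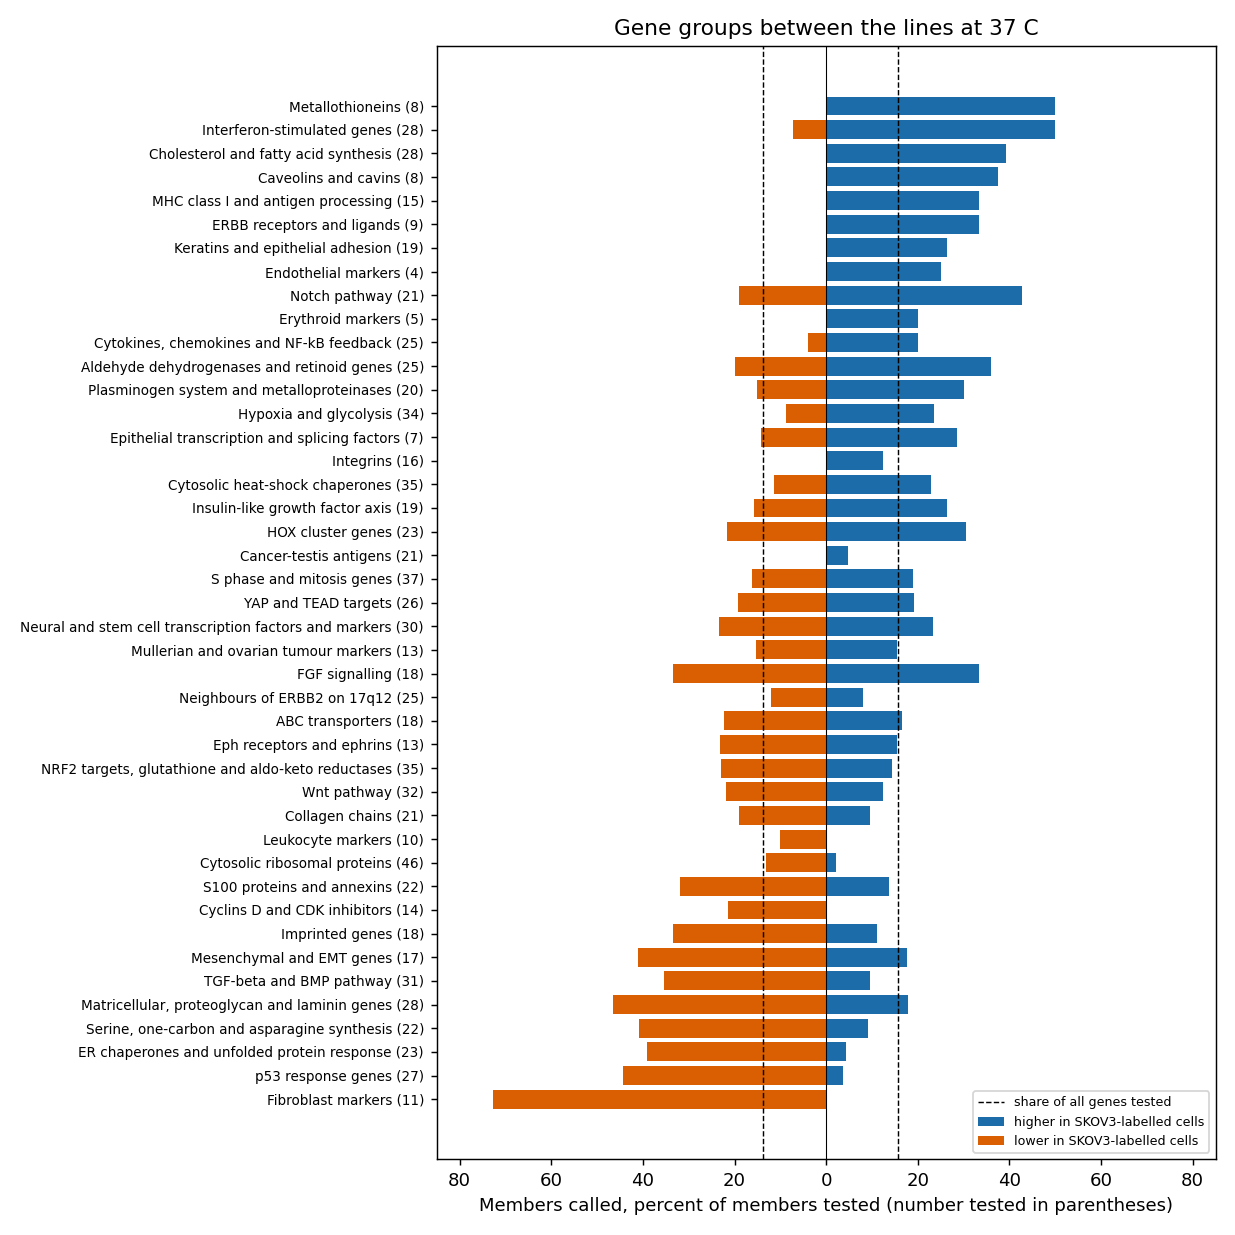
Share of the tested members of each gene list called higher (right, blue) or lower (left, orange) in SKOV3-labelled cells at 37 °C, in percent of members tested, with the number tested in parentheses and the shares over all 14189 genes as dashed lines. The lists of metallothioneins and of interferon-stimulated genes come first, with 4 of 8 and 14 of 28 members higher. The metallothionein list also holds MTF1, SLC30A1 and SLC39A10. The fibroblast markers come last, with 8 of 11 lower.

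Epithelial genes were low in both lines, with a few raised in SKOV3-labelled cells. Of 19 tested keratins and epithelial adhesion genes, 5 were called higher and 0 lower (5 and 1 with median scaling), and 10 of the 19 were above background in neither line. Beside CLDN1 these were DSG2, a cadherin of desmosomes, KRT18, the keratin of simple epithelia, EPCAM and DSC2. DSG2 read 7.88 and 7.70 in A2780 against 10.35 and 10.25, with another probe at 0.76. KRT18 was at least 2.65-fold higher. The log2 differences of EPCAM and DSC2 were 1.20 and 1.14, and the other probe of DSC2 gave only 0.08. KRT8, the partner of KRT18, was above background on no array. Of 17 further listed genes that fell below the intensity filter, 16 were above background on no array at 37 °C. Among 7 tested transcription and splicing factors of epithelia, FOXA1, a pioneer factor, was higher, at 8.78 and 8.59 against 7.08 and 6.80, and so was OVOL2 (at least 1.20-fold). ELF3, an epithelial ETS factor, was lower (difference -0.82). Of 13 tested Müllerian and ovarian tumour markers, 2 were higher and 2 lower, among them CRABP2 and FOXL2, the granulosa cell factor of the ovary, which read 7.96 and 8.15 in A2780 and was at least 3.03-fold lower.

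Mesenchymal genes split between the lines. Of 17 tested, 7 were called lower and 3 higher in SKOV3-labelled cells. S100A4, SNAI2 and TWIST1 had the largest falls, followed by AXL, a receptor tyrosine kinase (8.93 and 9.22 against 6.51 and 6.29), and by LGALS1, the galactose-binding lectin galectin-1, with a difference of -1.49. CDH2, the mesenchymal and neural N-cadherin, went the other way, from 8.07 and 7.74 in A2780 to 10.9999 and 10.86, as did PRRX1, a mesenchymal homeobox factor, with a difference of 1.58, although its other probe gave -0.01. Of 11 tested fibroblast markers 8 were lower and 0 higher, with a median difference of -1.13. They included LUM, the proteoglycan lumican, at 12.28 and 12.32 against 6.51 and 6.36, ACTA2, smooth muscle actin, at 9.35 and 9.17 against 6.81 and 6.99, and COL1A2 (at least 3.83-fold). COL1A1, FAP and PDPN were not called, with differences of -0.04, -0.18 and -0.06. The counts of 8 and 0 were also found with median scaling, without normalization between arrays and without the brightest A2780 array. The summed intensity of the 11 markers was 14.061 and 13.998 in log2 on the A2780 arrays against 10.476 and 10.532, and 9 of them were above background on both A2780 arrays against 3 on both SKOV3-labelled arrays. Whether other cells were present in the A2780 culture was not tested. Of the markers of other lineages, 0 of 10 leukocyte genes were called higher and 1 lower, and 1 of 4 endothelial and 1 of 5 erythroid genes were called higher. Each of these 3 counts fell to 0 without at least 1 of the arrays at 37 °C.

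Matrix genes were called in both directions. Of 28 tested matricellular, proteoglycan and laminin genes, 13 were lower and 5 higher (16 and 3 with median scaling), and 8 were above background in A2780 alone. FBLN1, the matrix glycoprotein fibulin-1, read 9.88 and 9.61 in A2780 against 6.63 and 6.59, and SDC1, the cell-surface proteoglycan syndecan-1, was lower by a log2 difference of -1.46. Besides POSTN, the laminin chains LAMA5 and LAMB1 of basement membranes were higher, by 1.32 and 1.27. Of 21 collagen chains 4 were lower and 2 higher: COL3A1, COL1A2, COL6A1 and COL6A2 against COL5A2 (1.21) and COL4A5 (1.02). Other probes gave 0.25 for COL6A2 and 0.16 for COL4A5. Among 20 tested genes of the plasminogen system and metalloproteinases, 6 were higher and 3 lower, and with median scaling 6 and 7. The list also holds inhibitors and a receptor, and the inhibitor TIMP1 was among the higher genes, with a difference of 0.91. MMP3, the protease stromelysin-1, rose from 9.53 and 9.53 to 12.70 and 12.72, and MMP1, interstitial collagenase, from 7.68 and 7.18 to 10.62 and 10.57. Of 16 tested integrins 2 were called (12.5%), both higher, where median scaling gave 1 higher and 2 lower, and without the second A2780 array or either SKOV3-labelled array 1 was called. Of 8 genes in the caveolin and cavin list 3 were higher, CAVIN2, CAVIN1 (10.71 and 10.19 against 12.54 and 12.57) and CAV2. That list also holds EHD2 and PACSIN2, which were not called. CAV2 was not called under 15 of 21 alternatives, and its other probe gave -0.11.

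Homeobox genes of the HOX clusters went both ways. Of 23 tested, 7 were called higher and 5 lower, with median scaling 4 and 7, and without the first SKOV3-labelled array 4 and 3. HOXB8 read 9.92 and 9.55 in A2780 against 11.64 and 11.62, HOXB5 10.85 and 10.30 against 12.33 and 12.44, and HOXB4 6.73 and 6.75 against 8.53 and 8.63. HOXC13 went the other way, at 10.002 and 10.06 against 8.51 and 8.43, and HOXC11 and HOXC12 were seen in A2780 alone, at least 1.81-fold and 1.33-fold higher there. HOXB13, at the far end of the B cluster, was lower, with a difference of -0.39. Of 30 tested neural and stem cell genes, 7 were higher and 7 lower. LIN28A, which blocks maturation of let-7 microRNAs in embryonic cells, read 10.20 and 10.10 in A2780 and was at least 12.95-fold lower in SKOV3-labelled cells, with NES, the neural progenitor filament nestin (11.24 and 11.54 against 8.41 and 8.58), SOX8 (difference -2.59) and UCHL1. INA, a neuronal filament protein, was higher (6.51 and 6.39 against 9.94 and 9.99), as were EYA4 (difference 3.43, with other probes at 1.60 to 2.42), PAX6, the eye and brain regulator (at least 3.54-fold), and SALL2 (1.67).

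In the Wnt list 7 of 32 tested genes were lower and 4 higher (11 and 2 with median scaling), a share of 34.4% called beside 29.3% of all genes. With DKK1 fell WIF1 and SFRP1, secreted Wnt antagonists (at least 5.11-fold and 3.80-fold), and the receptor FZD8 (at least 6.55-fold), while the receptor FZD6 was seen in SKOV3-labelled cells alone (at least 2.29-fold). In the TGF-beta and BMP list 11 of 31 were lower and 3 higher (17 and 1 with median scaling). Without the second SKOV3-labelled array 8 were lower and 1 higher. BMP7, a secreted morphogen, read 9.05 and 8.95 in A2780 and was at least 5.83-fold lower, the stress cytokine GDF15 at least 2.31-fold, the receptor TGFBR2 at least 2.14-fold and the ligand TGFB2 at least 1.55-fold. ID4, a target of BMP signalling, was higher by 1.55.

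Notch genes were called in 13 of 21 cases, 9 higher and 4 lower. The receptor NOTCH3 read 9.44 and 9.68 in A2780 against 7.21 and 7.18. The target factors moved both ways, HES1 down (at least 2.88-fold) and HES7 (at least 5.51-fold), HEY1 (8.54 and 8.11 against 10.997 and 10.97, with another probe at 1.25) and HES4 (difference 1.63) up. Under median scaling the Notch split was 6 and 6. In the FGF list 6 of 18 were higher and 6 lower (3 and 9 with median scaling), with FGF18, SPRY4 and FGFR4 lower (-2.45, -2.34 and -1.19) and SPRY2, a feedback inhibitor of receptor kinases, and the ligand FGF2 higher (1.94 and 1.28). The other probe of FGF18 gave 0.11, that of FGFR4 -0.72 and those of SPRY4 -1.59 to -0.005. Of 9 tested ERBB receptors and ligands 3 were higher (33.3%). Next to NRG1 these were its receptor ERBB3, at 7.68 and 7.63 against 6.47 and 6.30 with another probe at 0.32, and HBEGF, which turned at 46 °C. Of the insulin-like growth factor axis 5 of 19 were higher and 3 lower, and with median scaling 2 and 7. IGFBP6, a binding protein of IGF2, rose by 2.34. Without the second A2780 array, or without either SKOV3-labelled array, 1 was higher and 3 lower. Of 13 Eph receptors and ephrins 2 were higher and 3 lower. EFNB2 was at least 2.32-fold higher and EPHA3 at least 2.35-fold lower.

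Of 18 tested imprinted genes, which are expressed from the copy of 1 parent, 6 were lower and 2 higher. PEG10 and SGCE, neighbours that share a promoter region, were the 2 that rose, SGCE from 6.96 and 6.81 to 10.10 and 10.06. MEST, also paternally expressed, was at least 6.48-fold lower (other probes -1.43 and -1.31), the maternally expressed RNA H19 at least 3.78-fold lower, and PLAGL1, a zinc-finger factor, fell from 9.82 and 9.56 to 6.97 and 6.77. Among 26 targets and pathway members of YAP and TEAD, 5 were higher and 5 lower (4 and 11 with median scaling). The higher ones were ANKRD1, MYOF (1.56, with other probes at 0.35 to 1.37), LATS2 (1.28), GADD45B and WWTR1. The lower ones were AXL, TGFB2, CCN1 (-0.93), VGLL4 and AJUBA. Among 22 S100 proteins and annexins 7 were lower and 3 higher (9 and 2 with median scaling), with S100A11 at least 8.42-fold lower beside S100A4, and ANXA1 higher by 2.72.

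Interferon-stimulated genes were higher in SKOV3-labelled cells. Of 28 tested, 14 were called higher and 2 lower, and the median difference was 0.33. ISG15, a ubiquitin-like modifier, read 8.48 and 8.62 in A2780 against 10.72 and 10.75, IFITM1 6.93 and 6.81 against 8.84 and 8.86, and IFI6 7.58 and 7.57 against 9.36 and 9.36, with another probe at 0.88. IRF1 rose by 1.85. BST2, the antiviral tether tetherin, went the other way, from 9.03 and 8.65 to 6.17 and 6.81. Median scaling gave 11 higher and 5 lower. Of 15 tested genes of MHC class I and antigen processing, 5 were higher and 0 lower, and without the second A2780 array or either SKOV3-labelled array 2 or 3 were higher. TAP1, the peptide transporter, rose from 6.58 and 6.73 to 9.20 and 9.36, and the others, TAPBP (0.73, with other probes at -0.02 to 0.28), TAPBPL, HLA-C and B2M, were less than 2-fold apart. Of 25 cytokine, chemokine and NF-kB genes 5 were higher and 1 lower (3 and 3 with median scaling). CXCL16 rose from 7.06 and 7.105 to 10.22 and 10.26, with another probe at -0.08, and PTGS2, the inducible cyclooxygenase, was at least 2.03-fold lower, with another probe at -0.67.

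Lipid synthesis genes were called in 1 direction. Of 28 tested genes of cholesterol and fatty acid synthesis, 11 were higher and 0 lower, among them DHCR7, the last enzyme of cholesterol synthesis (9.39 and 9.42 against 10.46 and 10.51), FADS2, a fatty acid desaturase (6.61 and 6.61 against 7.57 and 7.67), STARD4 (1.25) and MSMO1 (0.85, with other probes at 0.06 to 1.39). This direction depended on scaling, since median scaling gave 3 higher and 10 lower, and without the brightest A2780 array 5 were higher and 0 lower. Serine, one-carbon and asparagine synthesis showed 9 lower and 2 higher of 22 (13 and 1 with median scaling). PHGDH, the first enzyme of serine synthesis, read 12.87 and 13.07 against 11.50 and 11.53, SLC3A2 and SLC7A5, the 2 chains of an amino acid transporter, differed by -1.22 and -1.09, and SHMT1 by 1.06, with other probes at 0.19 and 0.26. Of 34 hypoxia and glycolysis genes 8 were higher and 3 lower, but median scaling gave 4 higher and 12 lower, and without either SKOV3-labelled array 4 were higher. The glucose transporters SLC2A3 and SLC2A1 were lower (-1.50 and -1.16), and ENO2, neuronal enolase, and PFKP, a phosphofructokinase, were higher (at least 6.58-fold, and 8.26 and 8.59 against 10.43 and 10.66). The other probe of PFKP gave 0.14.

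Among 35 NRF2 targets, glutathione enzymes and aldo-keto reductases, 8 were lower and 5 higher (14 and 1 with median scaling). AKR1C3, a steroid reductase, read 9.54 and 9.503 in A2780 against 6.57 and 6.27. The related AKR1C2 and AKR1C4 were at least 5.62-fold and 5.53-fold lower, and whether probes of the family share signal was not tested. The other probe of AKR1C2 gave 0.05. NQO1 differed by -0.97, and MGST1, a microsomal glutathione transferase, was seen in SKOV3-labelled cells alone (at least 9.99-fold, with other probes at 0.74 to 1.75). Of 25 aldehyde dehydrogenase and retinoid genes 9 were higher and 5 lower. ALDH1A1, a retinaldehyde dehydrogenase, rose from 6.94 and 6.76 to 9.26 and 8.98, and ALDH2, the mitochondrial acetaldehyde enzyme, fell from 8.85 and 9.27 to 6.67 and 5.94. Median scaling turned that split to 5 and 8. Of 8 genes in the metallothionein list 4 were higher and 0 lower, where median scaling gave 2 and 1. The list also holds MTF1, SLC30A1 and SLC39A10, which were not called. Fewer members were higher without the first array of either line. MT2A differed by 1.45, and 6 others of the list were below the filter and above background on no array. Of 18 ABC transporters 3 were higher and 4 lower (3 and 7 with median scaling), with ABCA3 at 2.71 and ABCA1, the cholesterol exporter, at -1.95.

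Genes of the p53 response were lower in SKOV3-labelled cells. Of 27 tested, 12 were lower and 1 higher, with a median difference of -0.26. CDKN1A, the cell-cycle inhibitor p21, read 9.96 and 10.28 in A2780 against 6.68 and 6.64, although its second probe gave -0.09. PERP, a membrane protein of desmosomes, read 11.19 and 11.04 against 6.49 and 6.32, SESN1 8.84 and 9.22 against 7.02 and 6.80, and TP53I3 10.51 and 10.75 against 8.75 and 8.72. PHLDA3 was at least 3.13-fold lower. Without the brightest A2780 array 12 were lower and 0 higher, and with median scaling 15 and 0. In a list of 14 genes, cyclins D and CDK inhibitors with CDK4, CDK6, RB1, RBL1 and RBL2, 3 were lower and 0 higher. The list leaves out CDKN2A, the gene of the inhibitor p16, which was called higher, with a difference of 1.88. The lower ones were CDKN1A, CDK6 (at least 1.75-fold) and CCND3 (-0.45). The S phase and mitosis genes split at 7 higher and 6 lower of 37, where median scaling gave 0 and 16, and leaving out 1 array at 37 °C gave 1 to 4 higher and 4 to 7 lower. MCM2, a helicase subunit, read 10.37 and 11.20 against 9.61 and 9.92, with its 2 A2780 arrays apart from each other.

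Chaperones, the products that heat induces, differed modestly before any heat. Of 35 tested cytosolic heat-shock chaperones and partners, 8 were higher and 4 lower. That direction depended on scaling and on single arrays: median scaling gave 2 higher and 9 lower, no normalization between arrays 0 and 12, and leaving out the second A2780 array, or the first or second SKOV3-labelled array, 3 and 4, 2 and 5, and 3 and 4. HSPA4L read 8.47 and 8.12 against 9.31 and 9.27, HSPB1, the small heat-shock protein HSP27, 8.05 and 7.87 against 7.02 and 7.23, and ST13, a cochaperone of HSP70, differed by -0.74. Of 23 chaperones of the endoplasmic reticulum and genes of the unfolded protein response, 9 were lower and 1 higher. HSPA5, the HSP70 of the endoplasmic reticulum, read 9.34 and 9.19 against 7.64 and 7.57, and CANX, the lectin chaperone calnexin, 8.81 and 8.50 against 7.57 and 7.47. Of 46 cytosolic ribosomal proteins 6 were lower and 1 higher, a share of 15.2% against 29.3% of all genes, and without the second A2780 array or without either SKOV3-labelled array 2 were lower. The largest change was that of RPL14, at 12.04 and 13.08 against 11.001 and 10.93, with another probe at -0.03. Of 21 tested cancer-testis antigens 1 was called (2 with median scaling), and 15 were above background in neither line.

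Differences were also followed along chromosomes. With 14152 genes placed in order, the median difference was taken over each stretch of 21 neighbouring genes, and the middle 95% of 13692 stretches lay between -0.25 and 0.24. The lowest medians were -0.77 from CIMIP2C to GTF3C2 on chromosome 2, -0.77 from DZIP1 to BIVM on chromosome 13 and -0.55 from ALX1 to NUDT4 on chromosome 12. On chromosome 13, 14 of the 21 genes were called lower and 0 higher, led by CLYBL (7.99 and 7.76 against 6.33 and 6.24), MBNL2, an RNA-splicing factor, and RAP2A, a small GTPase, and at 46 °C the median was -0.85. The stretch on chromosome 12 holds NTS and the 4 adjacent small leucine-rich proteoglycan genes EPYC, KERA, LUM and DCN, all lower: KERA read 10.50 and 10.28 in A2780 and was at least 15.3-fold lower, and EPYC at least 2.03-fold. The other genes there moved both ways, with 4 of 21 called higher, and the median at 46 °C was -0.15. On chromosome 2 the median at 46 °C was -0.21, with SLC5A6, a vitamin transporter, at -1.39 and TMEM214 at -1.51.

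The highest medians were 0.50 from PPIAL4A to TXNIP on chromosome 1, and 0.44 both from C9orf57 to IDNK and from KLHL9 to APTX on chromosome 9, with 0.18, 0.21 and 0.42 at 46 °C. The last of these holds CDKN2A and MTAP and had 10 genes called higher and 0 lower, ACO1, an iron-responsive aconitase, among them (9.78 and 9.76 against 11.19 and 11.13). The one before it holds ANXA1, ALDH1A1 and PRUNE2, with 10 called higher and 1 lower. These stretches were picked as the extremes of the same data, and how large such extremes would be without regional differences was not determined. At 46 °C only the medians from DZIP1 to BIVM and from KLHL9 to APTX lay outside -0.25 to 0.24, the range given above. The copy number of the regions was not measured.

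**Figure D5:**
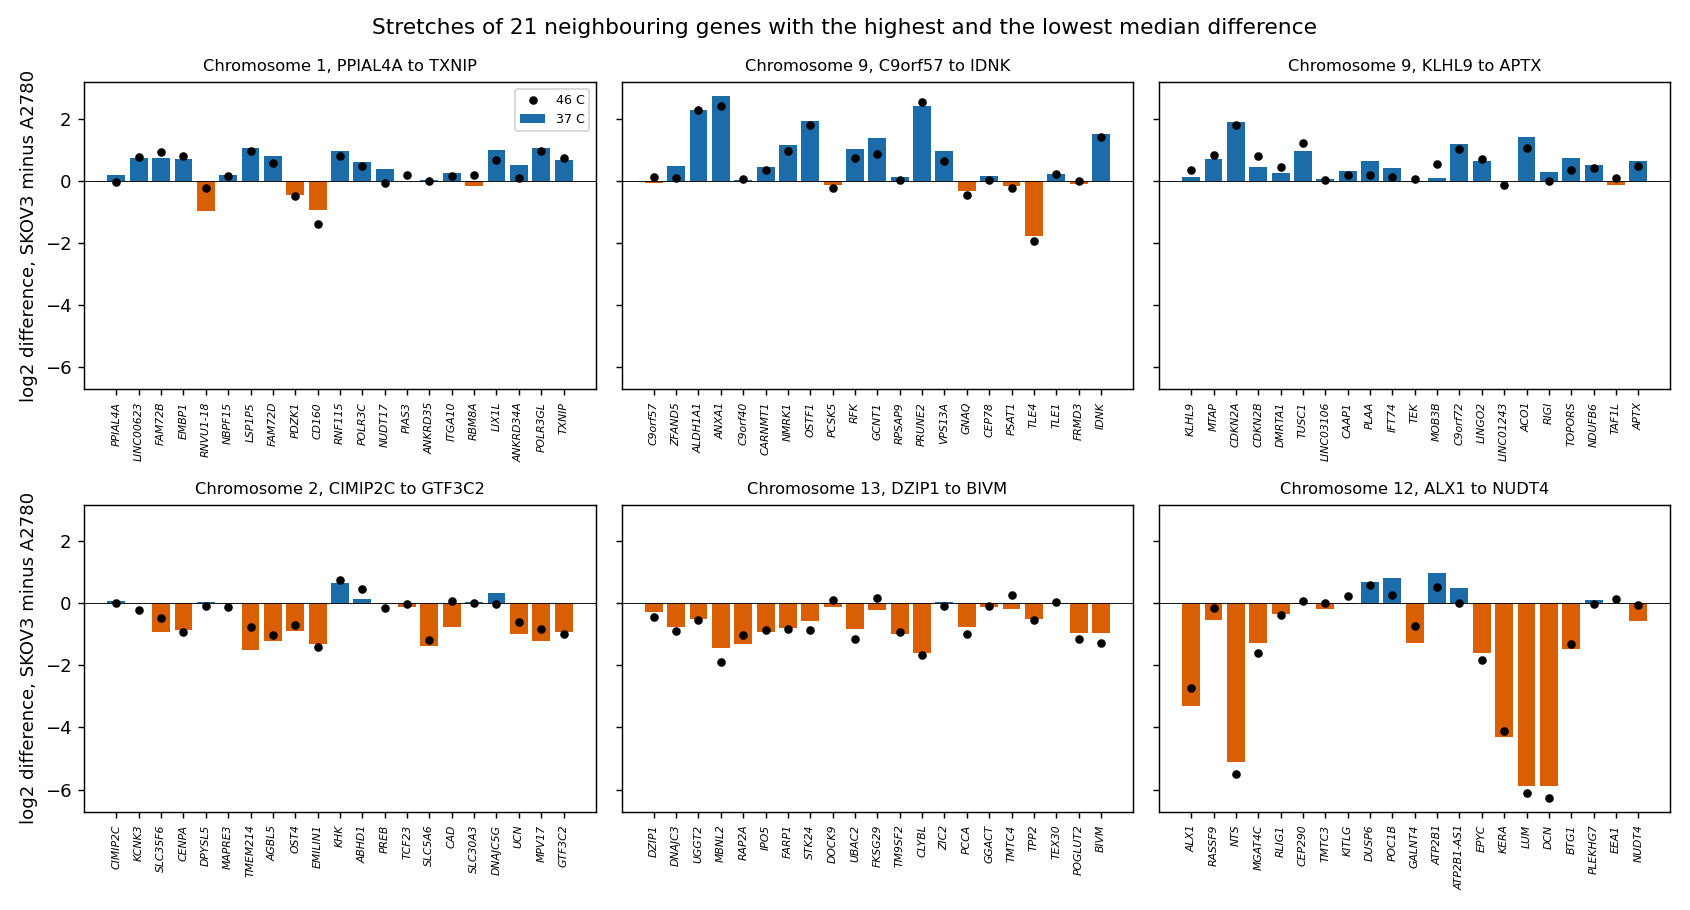
Difference between the lines (SKOV3-labelled minus A2780, log2, vertical axis) of each gene in the 3 stretches of 21 neighbouring genes with the highest median (top) and the 3 with the lowest (bottom), in chromosome order, with bars for 37 °C and points for 46 °C. On chromosome 13 most bars point down together (14 of 21 called lower). On chromosome 12 bars point both ways, and NTS, KERA, LUM, DCN and ALX1 are among the genes that were lower.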

How the data were processed

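Total RNA of 8 samples, 2 in each of 4 groups (A2780 or SKOV3 at 37 or 46 °C), was labelled with biotin and hybridised to BeadChips of 47231 probes. The deposited table of linear intensity was exported by the authors with BeadStudio, per the submitters' processing notes, whose version is not given in the sources used here. Its values show no scaling between arrays. The authors' deposited log2 values of the same arrays share 1 distribution, keep the rank of the intensities within an array and lie within 0.0246 of a quantile normalization of their log2. They served as an alternative.

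Intensities were background-corrected (normexp, offset 50) and quantile-normalized with limma 3.58.1 in R 4.3.3. Probes were kept if their mean over all arrays passed the 40th percentile of such means (6.16). Of the probes, 30113 had 1 gene symbol in the platform annotation and 17110 were not listed. The brightest kept probe stood for its gene, which gave 14189 genes. A model of the 4 groups over all 8 arrays gave the difference SKOV3 minus A2780 at 37 °C, with limma's moderated test and Benjamini-Hochberg adjustment over all genes (threshold 0.05). The arrays at 46 °C were also fitted alone. With no detection p-values, a probe counted as above background when its signal passed the 99th percentile of a normal curve centred on the mode of its array's log2 signals. The number of arrays limits the precision. The script was tested on simulated data.

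Gene lists and members were chosen with earlier results of these data known. Named genes were the 12 largest called changes in each direction among genes above background on all 4 arrays, and the 12 largest lower bounds in each direction among genes seen in 1 line only. Up to 5 called members in each direction of a list and the genes around ERBB2 were named too. Uncharacterised loci were passed over. The 3 largest changes of each chromosome stretch were named as well. CDKN2A, MTAP, KERA, EPYC, the genes given as not called and those called in opposite directions were named after their values were seen. Quantile normalization gives all arrays 1 distribution, so a shift of overall RNA level between lines cannot be seen, and the offset lowers the fold change of dim probes.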

Additional observations from a re-analysis of the deposited data

Results flagged for a closer look

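Among the 48 leading genes and the 9 called in opposite directions, the difference between the lines itself differed between 37 and 46 °C for 6. The test was that of this change in the model of all 8 arrays (limma, Benjamini-Hochberg adjustment over all genes). Other genes named are not covered by this count. The difference at 46 °C minus that at 37 °C was -2.1 for STC2 (adjusted p = 0.000784), a secreted glycoprotein of the stress response, -1.44 for DHDH (adjusted p = 0.0055) and -1.06 for HBEGF, a growth factor that binds the receptor EGFR (adjusted p = 0.0396). These 3 were called higher in SKOV3-labelled cells at 37 °C and lower at 46 °C. Their differences at 37 °C were only 0.40, 0.62 and 0.52, sizes at which the direction can depend on the scaling. The reversal carries that limit. The difference at 46 °C minus that at 37 °C was -1.58 for CITED2 (adjusted p = 0.0055) and 1.56 for DKK1 (adjusted p = 0.00211). It was 1.48 for RGS16 (adjusted p = 0.0189). In CITED2, DKK1 and RGS16 the difference kept its direction and was smaller at 46 °C. Groups of 2 arrays are too small to look for a single array far from the rest.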

How the results depend on the processing

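All 48 leading genes kept their direction and their call under each of the 21 alternatives. The count of 4163 called genes stayed within 1.5 times under the authors' log2 values, other filters, other priors, array weights and the mean of all probes. Requiring a change of at least 2-fold gave 447, of them 236 higher and 211 lower, with 368 called the same way at 46 °C. Scaling changed the split of calls: median scaling gave 890 higher and 4509 lower calls, no normalization between arrays 563 and 5470, with medians of all genes of -0.19 and -0.35. Leaving out 1 array at a time gave 2579 to 4501 called genes, 1389 to 2383 higher and 1190 to 2118 lower, and 1715 to 2639 repeated at 46 °C. The lowest counts came without SKOV3 control 1 (2579) and SKOV3 control 2 (2683), where the lone array is assumed to vary like the other groups; without A2780 control 2 there were 2864. With the replicate number as a block 4089 genes were called, 2153 higher and 1936 lower. Deviations of same-numbered control arrays correlated with r = 0.177 across genes, but 2 numbers cannot show that they pair the samples. No call of the leading genes changed with the block.

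Among 273 of the genes named, 5298 of 5717 values stayed on their side of the threshold in the same direction and 399 were no longer called. Genes outside these 273 were not followed. Without normalization between arrays the sign turned for ALDH18A1 (-0.17), ANXA7 (-0.19), EPHX1 (-0.11), ERBB2 (-0.57), GADD45A (-0.18), HLA-C (-0.11), HSPH1 (-0.092), HYOU1 (-0.030), ID1 (-0.029), IGF2BP2 (-0.15), ITGB5 (-0.14), KIF20A (-0.12), LTBP3 (-0.13), PGD (-0.041), RPS7 (-0.057), RRM1 (-0.092) and RRM2 (-0.091), and with median scaling for GADD45A (-0.024). With 11 and 41 genes around the same centre, the chromosome medians were 0.25 and 0.027 (PPIAL4A to TXNIP), 0.96 and 0.13 (C9orf57 to IDNK) and -0.026 and -0.00325 (ALX1 to NUDT4), and with 41 genes -0.21 (CIMIP2C to GTF3C2) and -0.21 (DZIP1 to BIVM). The cause of these moves was not tested. With the background at the 95th percentile, 63.2% and 56.6% of promoters reached a CG ratio of 0.6.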
